A study of Homo sapiens with 6 samples.

Results

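The nuclear pore complex is the channel through which RNA and proteins cross the nuclear envelope. It is built from scaffold rings (the Y complex and the inner ring), membrane anchors, a central channel of flexible nucleoporins, filaments on the cytoplasmic face and a basket on the nuclear face. The Y complex, named for its shape, forms the outer rings and is needed to assemble pores. Import and export receptors of the karyopherin family carry cargo through the channel, with direction set by the small GTPase RAN.

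The pore genes were chosen by name. The list held 32 genes, of which 30 had a probe set named in the platform annotation, among 17687 named genes in all. No probe set was named here for NUP62 or NUP98, both of which encode channel nucleoporins. Each of the 30 genes had a single probe set, so no choice between probe sets arose, and all 30 passed the filter on dim probe sets. That filter left out the lower 25% of the 21448 probe sets by mean log2 signal, at a limit of 4.44, and kept 16086.

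The study used Jurkat, a human cell line derived from T-cell acute lymphoblastic leukaemia. Cells of both groups were kept without serum for 90 min. The CXCL12 group (3 arrays) then received the chemokine CXCL12, the ligand of the receptor CXCR4, at 100 ng/ml for 15 min. The untreated group (3 arrays) did not. The replicates are labelled biological, with no word on whether separate cultures were grown, so a p-value reflects how far the samples of a group differed, for which technical variation may account in part.

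Values are the deposited log2 signals, and a change is the CXCL12 mean minus the untreated mean on the log2 scale. Changes were tested with limma, with Benjamini-Hochberg adjustment over all 16086 probe sets and a threshold of 0.05. All 10 T cell markers examined were kept by the filter, with changes from -0.11 to 0.15. MS4A1, a B cell marker, and LYZ, a myeloid marker, lay under the limit for dim probe sets in both groups. The filter is not a detection call, since 3 B cell, 3 myeloid and 3 erythroid markers were kept too, with changes from -0.14 to 0.22. EGR1, an immediate early transcription factor, averaged 7.97 ± 0.17 in CXCL12 arrays and 5.99 ± 0.11 in untreated arrays (SD, n = 3 each). It was 1 of the 2 probe sets that passed the adjusted threshold, CD69 being the other. Untreated replicate 1 stood apart, with a mean correlation with the other arrays of 0.982, against 0.987 to 0.989 for the other arrays. Leaving it out turned or moved the change by over 1.5 times for 25 of the 30 pore genes and for 10598 of all 16086 probe sets. This count was made for no other array, and small changes move easily, so it does not set untreated replicate 1 apart. For these 25 pore genes and for the pore parts, the value without untreated replicate 1 is given beside the main one.

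NUP133 had the most negative change among the pore genes and was singled out with this result known. It encodes a scaffold protein at the end of the Y complex stem. Its promoter is shown because it holds a cyclic AMP response element, the binding motif of CREB-family factors, which NUP214 and NUP42 of the cytoplasmic face also hold in the same window. The sequences are the 250 bases before the annotated start in RefSeq (GRCh38.p14), on the gene's own strand, with the motif in capitals. NUP133 lies at chr1:229508342-229508591 on the minus strand, NUP214 at chr9:131125336-131125585 on the plus strand and NUP42 at chr7:23181798-23182047 on the plus strand.
NUP133: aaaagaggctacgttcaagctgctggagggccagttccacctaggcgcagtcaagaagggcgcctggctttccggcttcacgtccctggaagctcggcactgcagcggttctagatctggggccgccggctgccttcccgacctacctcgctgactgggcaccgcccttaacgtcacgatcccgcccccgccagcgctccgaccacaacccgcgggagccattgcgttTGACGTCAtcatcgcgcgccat
NUP214: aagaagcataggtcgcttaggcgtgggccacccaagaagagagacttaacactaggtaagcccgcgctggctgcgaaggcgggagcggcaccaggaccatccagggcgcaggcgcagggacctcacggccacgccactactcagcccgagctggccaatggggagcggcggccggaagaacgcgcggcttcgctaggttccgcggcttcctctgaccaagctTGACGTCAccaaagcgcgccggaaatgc
NUP42: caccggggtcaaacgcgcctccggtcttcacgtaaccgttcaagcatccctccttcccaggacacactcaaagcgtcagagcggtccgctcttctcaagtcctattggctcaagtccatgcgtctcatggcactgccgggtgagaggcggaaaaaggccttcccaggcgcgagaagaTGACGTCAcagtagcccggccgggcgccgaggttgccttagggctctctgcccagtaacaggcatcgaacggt

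The motif was searched as TGACGTC on both strands, and its palindromic full form gives overlapping matches on the 2 strands. It began 22 bases before the start in NUP133, 28 bases in NUP214 and 73 bases in NUP42. It was found in 3 of the 27 measured pore genes with a promoter in the RefSeq table (11.1%), against 4.81% of 10887 promoters of tested genes. The other motifs examined did not mark NUP133, except the GC box. The ETS core, CCGGAAG, was in 12 of the 27 pore promoters (44.4%), against 14.2% of all. The EGR1 core, GCGTGGG, was in 3 of 27 (11.1% against 8.18%), those of NUP188, NUP214 and SEH1L. The CCAAT box was in 9 of 27 (33.3% against 34.6%), and the GC box, GGGCGG, in 12 of 27 (44.4% against 64.0%). The motifs were chosen after the values were known, and a match is a description of the letters only. NUP43, AHCTF1 and GLE1 had no entry in this promoter table.

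NUP133 (probe set TC0100017664.hg.1) had log2 signals of 4.74, 4.54 and 4.17 in CXCL12 replicates 1, 2 and 3, against 5.32, 5.10 and 5.19 in the untreated ones. Every CXCL12 array was below every untreated array, and the CXCL12 arrays lay further apart than the untreated ones. The group values were 4.48 ± 0.29 in CXCL12 arrays and 5.20 ± 0.11 in untreated arrays (SD, n = 3 each). The change was -0.72 (SE 0.15, 95% interval -1.05 to -0.39), or 0.606 times the untreated signal. The SE and interval draw on the variance of other genes, so the arrays of NUP133 alone may give wider ones. The change did not pass after adjustment (limma adjusted p = 0.655). It was the 2nd most negative of the 16086 changes, a rank that led to the choice of this gene and adds no support. The signal was low: CXCL12 replicate 3 was under the limit of 4.44 for dim probe sets, and the CXCL12 mean was 0.04 above it. The change was -0.57 without CXCL12 replicate 3 and -0.85 without CXCL12 replicate 1, the range over the 6 fits that left out an array. The RNA was pooled over the cells of a sample, so fewer cells with the transcript and less transcript per cell cannot be told apart.

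The 8 partners of NUP133 in the Y complex did not share its value. None passed the adjusted threshold (limma adjusted p = 0.996 for each), and none had groups that did not overlap. All 8 had limma 95% intervals that excluded a change of 1.5-fold or more in either direction. As these intervals draw on the variance of other genes, a partner's own arrays alone may not exclude such a change. The changes of 5 partners were positive and those of 3 were negative, and their median was 0.10, against 0.00228 over all tested probe sets. Without untreated replicate 1, 3 were positive and 5 negative and the median was -0.07.

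NUP107, which joins NUP133 in the stem, had 7.95, 7.80 and 7.83 in CXCL12 arrays, against 7.30, 7.84 and 8.14 in untreated arrays. The CXCL12 arrays lay close together inside the untreated range. The change was 0.10 (95% interval -0.29 to 0.50), and it was -0.13 without untreated replicate 1, the lowest array. NUP160, a long-arm scaffold protein, had 9.32, 9.32 and 9.43 in CXCL12 arrays, against 9.07, 9.37 and 9.34 in untreated arrays, a change of 0.10 (-0.18 to 0.37). Untreated replicate 1 was again the low array, and without it the change was 0.00181.

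NUP85, of the short arm, had 8.40, 7.78 and 8.30 in CXCL12 arrays, against 7.74, 8.21 and 8.22 in untreated arrays, a change of 0.10 (-0.29 to 0.50), or -0.06 without untreated replicate 1. In this gene 1 array of each group was low, CXCL12 replicate 2 and untreated replicate 1. NUP43, a small beta-propeller subunit, had 8.85, 8.85 and 8.93 in CXCL12 arrays, against 8.30, 8.75 and 8.91 in untreated arrays. Its change of 0.22 (-0.11 to 0.56) was the highest in the Y complex and was 0.05 without untreated replicate 1. AHCTF1, also called ELYS, which brings the Y complex to chromatin as the nucleus re-forms after mitosis, had 9.09, 8.85 and 9.06 in CXCL12 arrays, against 8.57, 8.94 and 8.96 in untreated arrays. Its change of 0.18 (-0.13 to 0.48) was 0.05 without untreated replicate 1.

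The other partners had negative changes. NUP37, a beta-propeller subunit bound to NUP160, had 7.96, 7.89 and 7.80 in CXCL12 arrays, against 8.24, 7.80 and 8.31 in untreated arrays. The groups overlapped through untreated replicate 2, with a change of -0.23 (-0.55 to 0.09), the most negative after NUP133 among all 30 genes. SEH1L, which also serves in the GATOR complex of nutrient sensing, had 9.03, 9.31 and 9.17 in CXCL12 arrays, against 9.52, 9.30 and 9.21 in untreated arrays, a change of -0.17 (-0.46 to 0.12), or -0.08 without untreated replicate 1. SEC13, shared with the COPII coat of secretory vesicles, had 9.74, 9.71 and 9.82 in CXCL12 arrays, against 9.58, 10.03 and 9.86 in untreated arrays. All 3 CXCL12 arrays of SEC13 lay inside the untreated range, and the change was -0.07 (-0.36 to 0.23), or -0.19 without untreated replicate 1.

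**Figure D1:**
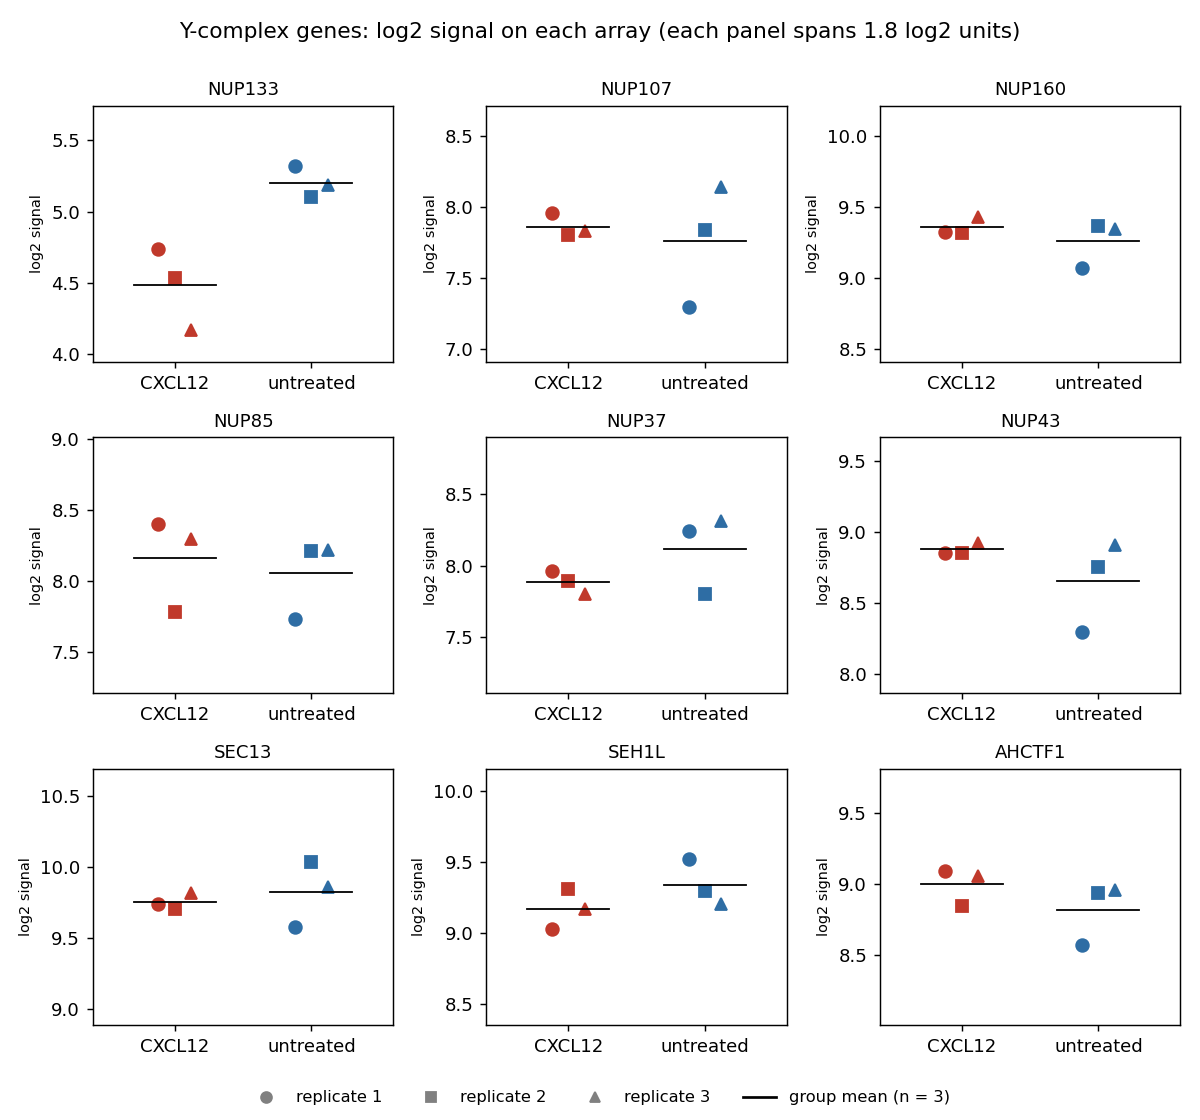
Log2 signal (y axis) of the 9 Y-complex genes on each array, CXCL12 in red and untreated in blue, with a marker shape per replicate and a line at the group mean (n = 3); each panel spans the same height. The groups separate for NUP133, with CXCL12 arrays from 4.17 to 4.74 and untreated arrays from 5.10 to 5.32, and overlap for the 8 partners.

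To set NUP133 beside its partners on 1 scale, each gene's signal was taken relative to its own untreated mean. This hides a difference in signal level. The mean signal of NUP133 was at percentile 30.6 of all probe sets, while the other measured pore genes were at 54.5 or above. A mean of 8 genes also scatters less than 1 gene, so the 2 are not alike in level or precision. NUP133 lay at -0.47, -0.67 and -1.03 in CXCL12 replicates 1, 2 and 3, against 0.12, -0.10 and -0.02 in the untreated ones. The mean of the 8 partners lay at 0.07, -0.04 and 0.06 in CXCL12 arrays, against -0.19, 0.05 and 0.14 in untreated arrays. The partners' mean in CXCL12 arrays was thus inside its untreated range, whose low end was untreated replicate 1. Without that array the range was 0.05 to 0.14, and CXCL12 replicate 2 lay below it. Single partners did leave their own untreated range. NUP85 and AHCTF1 lay above it in CXCL12 replicates 1 and 3, and NUP160 and NUP43 in CXCL12 replicate 3. SEH1L lay below it in CXCL12 replicates 1 and 3. NUP107, NUP37 and SEC13 stayed inside theirs. The change of NUP133 minus the mean change of its partners was -0.75. As NUP133 was singled out by its value, this difference is a description and was not tested. It was -0.60 without untreated replicate 1. The 21 measured genes outside the Y complex had means of -0.02, -0.05 and -0.01 in CXCL12 arrays, against 0.01, 0.02 and -0.03 in untreated arrays.

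**Figure D2:**
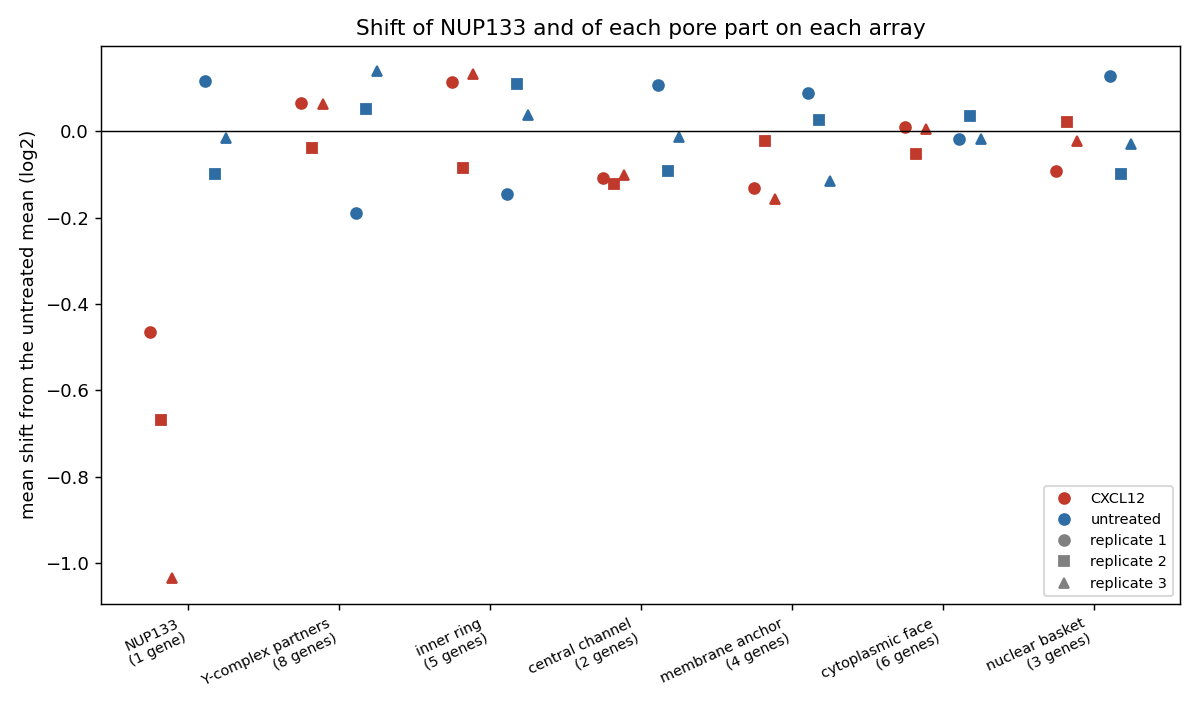
Mean log2 shift from the untreated mean (y axis) on each array for NUP133, its 8 partners and the other pore parts with at least 2 measured genes, CXCL12 in red to the left and untreated in blue, with a marker shape per replicate. NUP133 reached -1.03 in CXCL12 replicate 3, while the partners' mean stayed between -0.19 and 0.14 on all 6 arrays.

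Over the 30 measured pore genes, 0 passed the adjusted threshold (limma), against 0.0124% of all tested probe sets. At an unadjusted limma p under 0.05, 1 of the 30 was called, NUP133, and it was lower. This count includes the gene singled out by its value, and the background was 4.73% in either direction with 2.01% lower and 2.72% higher. The groups did not overlap for 3 of the 30 genes, against 9.54% of all tested probe sets. CXCL12 arrays were lower for 2 of these (NUP133 and NUP88), against 4.48% of all, and higher for 1 (NUP35), against 5.05%. Of the 30 changes, 19 were negative, against 49.3% of all tested probe sets, and 11 were positive, with a median of -0.03 and quartiles of -0.10 and 0.10, against a median of 0.00228 and quartiles of -0.09 and 0.10 over all tested probe sets. Leaving out untreated replicate 1 gave 20 negative and 10 positive changes and a median of -0.05, against -0.00340 over all tested probe sets. For 28 of the 30 genes (93.3%) the 95% interval excluded a change of 1.5-fold or more in either direction, against 89.9% of all tested probe sets. NUP133 and NUP205 were the 2 exceptions.

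**Figure D3:**
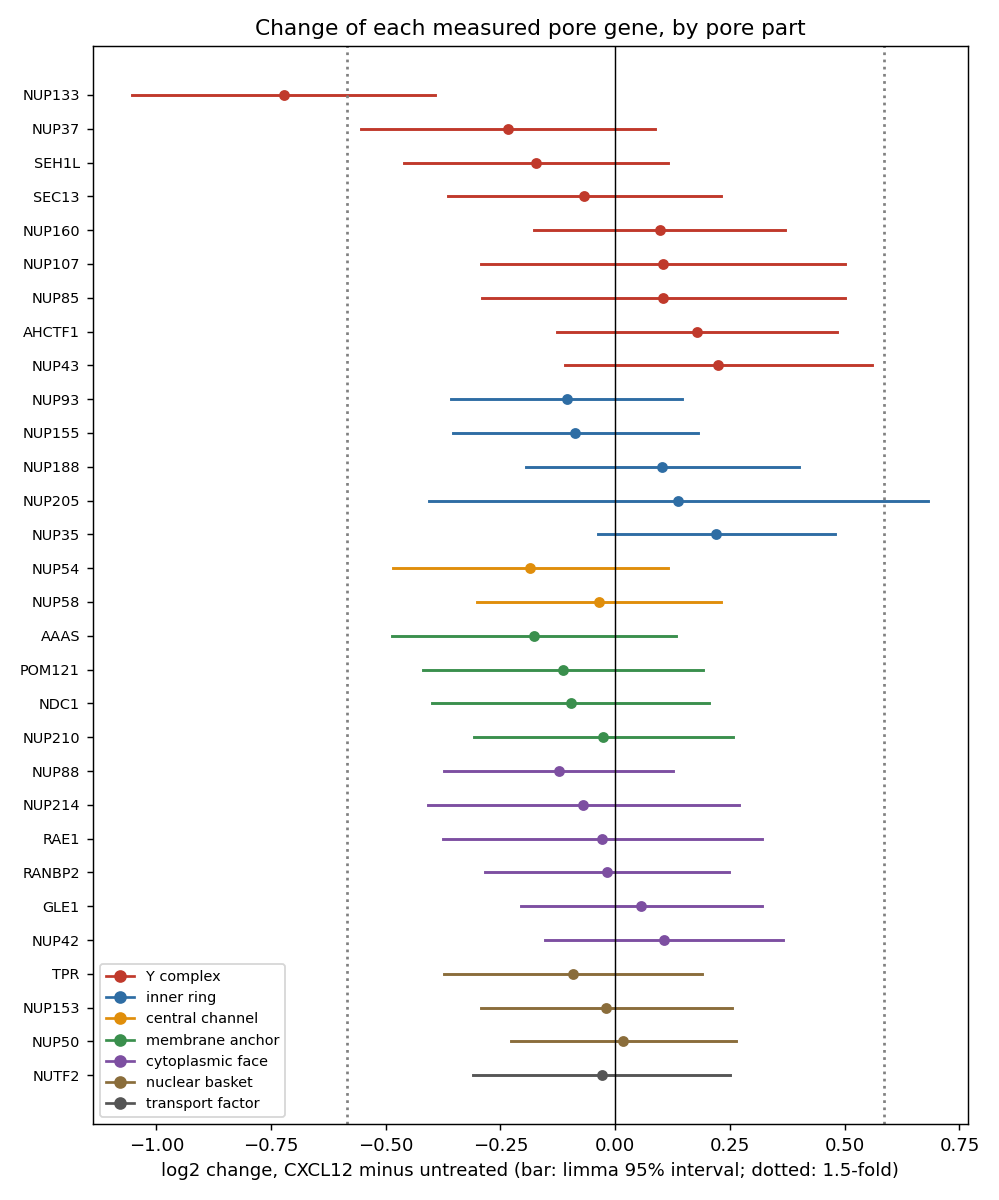
Log2 change, CXCL12 minus untreated (x axis), of the 30 measured pore genes with limma 95% intervals (bars), grouped and coloured by pore part, with dotted lines at a 1.5-fold change. The interval of NUP133 (-1.05 to -0.39) excludes 0 before adjustment, and the other 29 intervals include it.

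The inner ring, the scaffold that faces the channel, had 5 measured genes, with 3 positive and 2 negative changes and a median of 0.10. With untreated replicate 1 left out, 1 was positive and 4 negative and the median was -0.02. NUP35, which binds membrane and other inner ring subunits, had 8.67, 8.57 and 8.60 in CXCL12 arrays, against 8.28, 8.40 and 8.50 in untreated arrays. Its groups did not overlap, with higher CXCL12 arrays, but its change of 0.22 (95% interval -0.04 to 0.48) did not pass (limma adjusted p = 0.996). NUP93, an organiser of the ring, had the lowest change, -0.11, with signals of 8.67, 8.63 and 8.57 in CXCL12 arrays, against 8.65, 8.80 and 8.75 in untreated arrays. NUP205, a large scaffold protein, had the largest standard error of the change among the 30 genes, 0.25, with 6.55 ± 0.56 in CXCL12 arrays and 6.41 ± 0.38 in untreated arrays (SD, n = 3 each). Its signals were 6.88, 5.90 and 6.86 in CXCL12 arrays, against 5.99, 6.73 and 6.51 in untreated arrays. The low arrays were CXCL12 replicate 2 and untreated replicate 1, and the change of 0.14 became 0.46 without CXCL12 replicate 2 and -0.07 without untreated replicate 1. NUP188, the homologue of NUP205, had 0.10, or -0.02 without untreated replicate 1, and NUP155, another scaffold protein, had -0.09, or -0.02 without that array.

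The 4 genes of the membrane anchor all had negative changes, from -0.18 to -0.03, with 0 passing and overlapping groups for each. These were 1 positive and 3 negative changes without untreated replicate 1, from -0.12 to 0.00448. AAAS, the gene mutated in triple A syndrome, whose product is held at the pore by NDC1, had 10.00, 10.02 and 9.66 in CXCL12 arrays, against 10.27, 10.01 and 9.93 in untreated arrays, a change of -0.18, or -0.08 without untreated replicate 1. NDC1 itself, a transmembrane nucleoporin, had -0.10 (-0.04 without that array), with signals of 9.16, 9.47 and 9.06 in CXCL12 arrays, against 9.44, 9.35 and 9.20 in untreated arrays. POM121, another transmembrane nucleoporin, had -0.11, and 0.00448 without untreated replicate 1. POM121 has a near-identical copy, POM121C (-0.08, or -0.05 without that array), and probes may not separate the genes. NUP210, a membrane glycoprotein of the pore, had the change nearest to 0, -0.03, which was -0.12 without untreated replicate 1. In the central channel, NUP54 had -0.18 and its partner NUP58 -0.04. The value of NUP54 was -0.05 without untreated replicate 1, which at 8.86 was its highest array, and that of NUP58 was -0.06.

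On the cytoplasmic face, where exported mRNA is released, 2 of the 6 genes had positive and 4 negative changes, with a median of -0.02, or -0.03 and the same numbers of each sign without untreated replicate 1. NUP88, which anchors NUP214 there, had 8.48, 8.50 and 8.40 in CXCL12 arrays, against 8.55, 8.65 and 8.54 in untreated arrays. Its groups did not overlap, with lower CXCL12 arrays, but the gap was narrow, and the change of -0.12 (95% interval -0.37 to 0.13) did not pass (limma adjusted p = 0.996). NUP214, which docks the mRNA export helicase, had 8.60, 8.92 and 8.55 in CXCL12 arrays, against 9.04, 8.71 and 8.53 in untreated arrays, a change of -0.07, or 0.07 without untreated replicate 1. NUP42, a partner of GLE1, had 8.90, 8.82 and 8.92 in CXCL12 arrays, against 8.89, 8.65 and 8.78 in untreated arrays. Its change of 0.11 was the highest of this face and was 0.16 without that array. NUP214 and NUP42, whose promoters hold the same motif as that of NUP133, both had overlapping groups. Their intervals included 0 (-0.41 to 0.27 and -0.15 to 0.37). Any part of the motif in these values was not tested. GLE1, the activator of that helicase, had 0.06, RAE1, an mRNA export factor, -0.03, and RANBP2, the large filament protein, -0.02. Without untreated replicate 1 these were -0.00677 for GLE1, -0.17 for RAE1 and -0.05 for RANBP2. RANBP2 belongs to a family with near-identical copies, so its identity is uncertain.

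In the nuclear basket, TPR, its main filament, had the lowest change, -0.09, with signals of 7.21, 7.29 and 7.27 in CXCL12 arrays, against 7.53, 7.14 and 7.37 in untreated arrays. NUP153, the basket's anchor, had -0.02, and NUP50, a mobile cofactor of import, had the highest, 0.02. Without untreated replicate 1, TPR had -0.00332, NUP153 0.06 and NUP50 0.04. NUP50 varied least of the 30 genes within both groups, 10.1 ± 0.03 in CXCL12 arrays and 10.08 ± 0.04 in untreated arrays (SD, n = 3 each). NUTF2, the carrier that returns RAN to the nucleus, had 11.21, 11.36 and 11.26 in CXCL12 arrays, against 11.50, 11.27 and 11.15 in untreated arrays, a change of -0.03, or 0.07 without untreated replicate 1.

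For most pore genes, 1 array of each group deviated from the rest of its group with the same sign. Untreated replicate 1 was compared with the mean of untreated replicates 2 and 3, and CXCL12 replicate 2 with the mean of CXCL12 replicates 1 and 3. The arrays were chosen for this after the values were seen, as the pair whose deviations correlated highest across all tested probe sets. Both deviations had the same sign for 27 of the 30 pore genes (90.0%), against 59.5% of all tested probe sets. They were both negative for 14 pore genes and both positive for 13. The signs were also the same for 30 of the 41 measured genes of nuclear transport described below (73.2%). The median size of the deviation in the pore genes was 0.10 in CXCL12 replicate 2, smaller than the 0.15 over all tested probe sets, and 0.28 in untreated replicate 1, larger than the 0.18 over all. Other arrays set the spread of some genes, as CXCL12 replicate 3 did for NUP133 and untreated replicate 2 for NUP37. Across the 30 genes the deviations correlated at a Pearson r of 0.72 and a Spearman rho of 0.79, and at 0.72 and 0.78 without NUP205. Across all 16086 probe sets the values were 0.28 and 0.27. The points share the same arrays and genes are not independent replicates, so this is a description.

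In the Y complex, both deviations were negative for 6 genes and positive for 3. A sign does not make an array the lowest or highest of its group. CXCL12 replicate 2 was the middle array of its group for NUP43, NUP37 and NUP133. NUP85 lay -0.57 from the other arrays in CXCL12 replicate 2 and -0.48 in untreated replicate 1. NUP107 lay -0.09 and -0.69 away on these arrays, and NUP205 of the inner ring -0.97 and -0.63. RAE1 was -0.41 from the others on both. Genes that were high on both included NUP214 (0.34 in CXCL12 replicate 2 and 0.42 in untreated replicate 1), AAAS (0.19 and 0.29) and SEH1L (0.21 and 0.27), and all 3 basket genes were high on both arrays. NUP133 deviated by 0.08 and 0.17 on these arrays. For this gene CXCL12 replicate 3 lay further from its group, at 4.17 against 4.74 and 4.54 in CXCL12 replicates 1 and 2. Another fit, chosen after seeing the data, left out untreated replicate 1 and CXCL12 replicate 2. There the change of NUP133 was -0.69 (limma adjusted p = 0.464). The part of RNA quality or processing in this pattern was not tested, since scanner files were not used here.

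**Figure D4:**
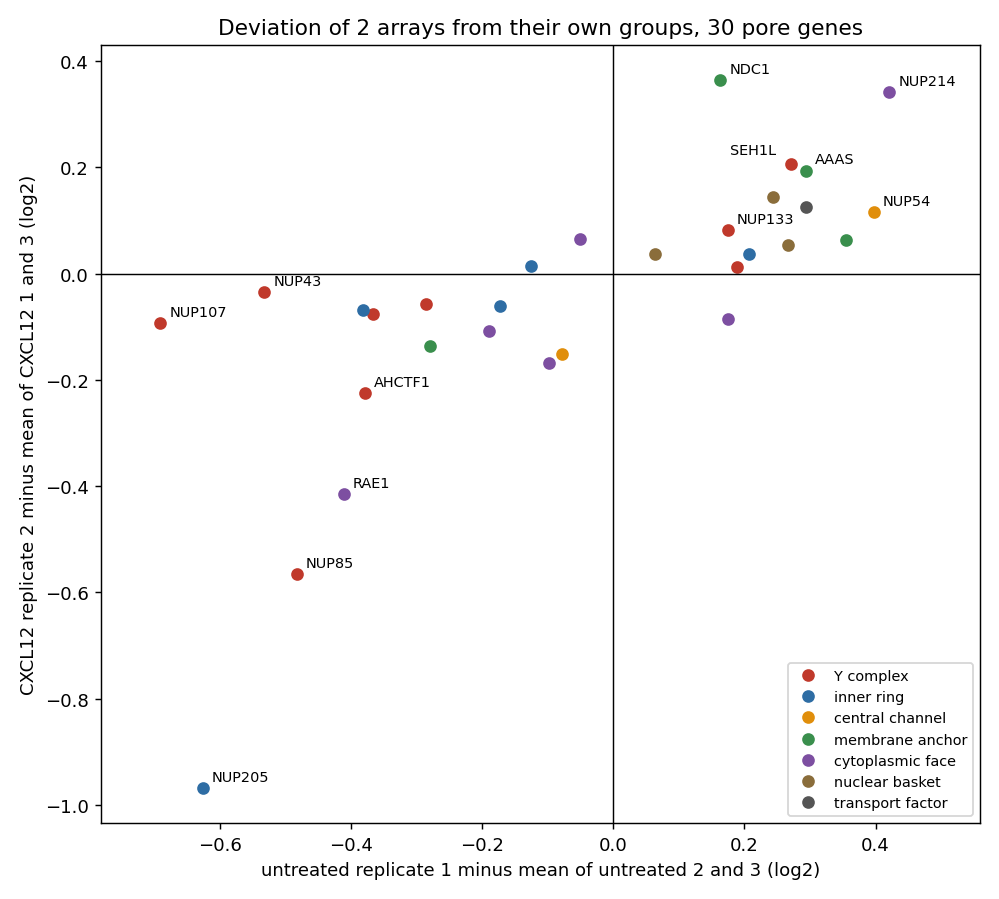
Deviation of CXCL12 replicate 2 from CXCL12 replicates 1 and 3 (y axis, log2) against that of untreated replicate 1 from untreated replicates 2 and 3 (x axis, log2), 1 point per pore gene, coloured by pore part. Of the 30 points, 27 lie at the lower left or upper right, where both deviations have the same sign, from NUP205 (-0.97 and -0.63) to NUP214 (0.34 and 0.42).

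The genes that use the pore were examined as a further list of 47 import and export receptors, RAN cycle genes, mRNA export genes and pore gene copies, 41 of them measured. None passed (limma), 23 changes were positive and 18 negative, and the median was 0.03. Without untreated replicate 1, 19 were positive and 22 negative and the median was -0.00469. The groups did not overlap for 5 of the 41, against the 9.54% of all tested probe sets. The 15 measured import receptors had 12 positive and 3 negative changes, with a median of 0.06 and 0 passing. These were 10 positive and 5 negative changes without that array, with a median of 0.02. Among 7 export receptors, XPO6, which exports actin with profilin, had 8.07, 8.09 and 7.85 in CXCL12 arrays, against 8.34, 8.34 and 8.17 in untreated arrays. XPO6 was the 1 gene of the 41 with an unadjusted limma p under 0.05. Of all tested probe sets, 4.73% were called in either direction and 2.01% were lower. Its change was -0.28 (95% interval -0.55 to -0.01, limma adjusted p = 0.996).

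XPO4, an exporter and importer of several cargoes, had 8.99, 8.85 and 8.94 in CXCL12 arrays, against 8.63, 8.82 and 8.71 in untreated arrays, a change of 0.20 with groups that did not overlap. RANBP3, a cofactor of the exporter XPO1, averaged 8.90 ± 0.03 in CXCL12 arrays and 9.10 ± 0.11 in untreated arrays (SD, n = 3 each), a change of -0.20 with lower CXCL12 arrays throughout. The other genes with separate groups were in mRNA export: MCM3AP, a scaffold of the TREX-2 complex, with 0.31 and THOC5, a subunit of the THO complex, with -0.12. MCM3AP had 7.01, 6.79 and 6.93 in CXCL12 arrays, against 6.26, 6.77 and 6.77 in untreated arrays, and its change was 0.14 without untreated replicate 1. For each of these 4 genes the 95% interval included 0, and the limma adjusted p was 0.996.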

How the data were processed

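RNA from 6 samples was measured on Affymetrix arrays. The deposited table holds log2 values, 1 per probe set and array, which the authors made with RMA (background subtraction, normalization between arrays and summary of probes) and the Transcriptome Analysis Console, per the submitters' processing notes. Which versions, settings and build were used is not given in the sources used here. Values ran from 1.99 to 13.1. Array medians were 6.21, 6.20 and 6.22 in CXCL12 replicates 1, 2 and 3 and 6.18, 6.19 and 6.19 in untreated replicates 1, 2 and 3. The scale and the absence of centring follow from these values. The number of arrays limits the precision.

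The platform annotation, which can be old, named 17709 probe sets with 1 symbol each and 0 with several, and left 3739 unnamed here. The symbols of all 17709, which stand for 17687 genes, occur in RefSeq's GRCh38.p14 gene table. The fit used lmFit and eBayes from limma 3.58.1 (R 4.3.3, two-sided, 6 arrays, no covariates) after leaving out the lower 25% of probe sets by mean. The fit was tested on simulated data.

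The pore genes, the lists and the tests were chosen with earlier results of these data known. All pore genes could be named. Of the transport genes, those named had an unadjusted p under 0.05 or groups that did not overlap. Alternatives were other filters, array weights, quantile or cyclic loess normalization, median centring, a robust prior with a trend, the replicate block and leaving out arrays. Averaging probe sets of 1 gene changed nothing, as each pore gene had 1. No label pairs the replicate numbers.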

Additional observations from a re-analysis of the deposited data

How the results depend on the processing

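No pore gene passed the adjusted threshold under any of the 15 alternatives run. NUP133 kept its sign in the 14 that tested it, from -0.85 to -0.57 with limma adjusted p from 0.323 to 0.99998, and leaving out the lower 50% of probe sets removed it. With the replicate block its change was -0.72 (limma adjusted p = 0.911). The labels state no pairing, and same-numbered arrays deviated together at correlations of -0.19, -0.11 and 0.11. When each array was left out, the difference between NUP133 and its partners ran from -0.86 to -0.58 and the median of the pore genes from -0.05 to -0.02. CD69 lost its call with no filter (1.34), median centring (1.32), cyclic loess (1.33) and in 4 of the 6 fits that left out an array.

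Signs turned for small changes, none of them past the threshold. NUP153 turned with quantile normalization (0.00619), cyclic loess (0.00114) and array weights (0.0112), and NUTF2 with quantile normalization (3.17e-05) and array weights (0.0209). NUP50 turned with median centring (-0.00354) and NUP107 with array weights (-0.0378). Without untreated replicate 1 and CXCL12 replicate 2 together, chosen after seeing the data, NUP107 (-0.0953), NUP188 (-0.00174), RANBP2 (0.00573), NUP153 (0.0136) and NUTF2 (0.0271) turned. When each array was left out, these ranges crossed 0: NUP107 -0.126 to 0.293, NUP85 -0.0561 to 0.293, SEC13 -0.189 to 0.0374, NUP188 -0.0243 to 0.183, NUP205 -0.0710 to 0.460, NUP58 -0.0795 to 0.0317, POM121 -0.221 to 0.00448, NUP210 -0.119 to 0.0531, NUP214 -0.185 to 0.0707, RANBP2 -0.0821 to 0.0381, GLE1 -0.00677 to 0.113, RAE1 -0.165 to 0.110, NUP153 -0.0735 to 0.0615, NUP50 -0.00185 to 0.0391 and NUTF2 -0.108 to 0.0686. The cause was not tested.

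The median half-width of a 95% interval for the pore genes was 0.29, which limits what smaller changes can show. Detection calls were not used here, so how far NUP133 lies above background is not known.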
